A study of Mus musculus with 4 samples.

Results

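*Avp*, *Oxt*, *Pmch* and *Hcrt* encode the precursors of 4 neuropeptides of the magnocellular and lateral hypothalamus, and their mRNA was measured in the hypothalamus of WD-fed WT and WD-fed *Tas1r3*-/- mice. They were chosen by symbol, the RefSeq transcripts of each gene were summed, and they are 4 of the 16339 genes with a transcript in the table. In 3 of the 4 libraries these mRNAs were abundant, together between 726 and 1377 CPM (counts of a gene scaled to a library of fixed size), whereas in WT WD replicate 2 they summed to 13.2 CPM. The fitted genotype difference of each of the 4 genes shifted downward without that library, and its sign turned for *Avp*, *Oxt* and *Pmch*, so each comparison is given with and without it.

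The mice were male C57BL/6, aged 8 weeks when the diet began, and received WD for 12 weeks, that is, a 60% fat chow with a 30% sucrose solution to drink. The *Tas1r3*-/- mice carried a conventional knockout of *Tas1r3*, a subunit of the sweet and umami taste receptors, in every cell, and the WT mice were their littermates from heterozygous parents. Both groups had the diet in common, and a library of mice on the normal diet was not analysed here. RNA sequencing compared 2 libraries of WT WD with 2 of *Tas1r3*-/- WD. The methods give more mice per group for the sequencing than there are libraries here, and the labels do not say whether a library came from 1 animal or from a pool, so each SD and the p-values measure the spread between these libraries only.

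Vasopressin (*Avp*) and oxytocin (*Oxt*) are made by separate large neurons of the paraventricular and supraoptic nuclei, which send axons to the posterior pituitary. Vasopressin retains water and raises blood pressure, and oxytocin acts in labor, milk ejection and social behavior. Melanin-concentrating hormone (*Pmch*) and the orexins (*Hcrt*) are made by separate, intermingled neurons of the lateral hypothalamus and zona incerta. The former favors feeding and sleep, and the latter sustain wakefulness and drive arousal. All 4 precursors are cut into active peptides inside dense-core granules, and their mRNAs are concentrated in small groups of cells. In bulk RNA, fewer cells of a type and less RNA per cell cannot be told apart.

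*Avp* (ENSMUSG00000037727) lies at chr2:130422540-130424640 on the minus strand of GRCm39 and *Oxt* (ENSMUSG00000027301) at chr2:130418091-130418974 on the plus strand, each with 3 exons. The pair are arranged tail to tail with 3565 bases between them. Their mature peptides are nonapeptides, coded within exon 1, and the coding stretches of 27 bases are shown because they are what distinguishes the hormones, with the bases that differ in capitals.
Avp, chr2:130424366-130424392, minus strand: tgctacTtccagaactgcccAAGAggc
Oxt, chr2:130418187-130418213, plus strand: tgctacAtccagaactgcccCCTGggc
Counted from 1 at the 5′ end of the stretch, with the *Avp* base first, the substitutions are T7A, A21C, A22C, G23T and A24G. They make 5 differences in 27 bases and fall in 3 of the 9 codons, namely codons 3, 7 and 8. Codon 7 codes for proline in both genes, so the peptides differ in the residues of codons 3 and 8. Downstream, both precursors code for a neurophysin, the carrier of the hormone in the granule, and there the mRNAs are identical over 127 bases, all coding, which begin near the end of exon 1 and continue in exon 2.
Avp, spliced within chr2:130423053-130424331, and Oxt, spliced within chr2:130418248-130418635: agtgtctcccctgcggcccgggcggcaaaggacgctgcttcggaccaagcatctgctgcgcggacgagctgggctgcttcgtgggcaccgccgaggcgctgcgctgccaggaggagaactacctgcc
A read that falls wholly within this run cannot be assigned to either gene. Of all windows of 50 bases, 78 of 490 in the *Oxt* transcript (15.9%) also occur in *Avp*, and the same 78 are 11.2% of the 694 windows of *Avp*.

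**Figure D1:**
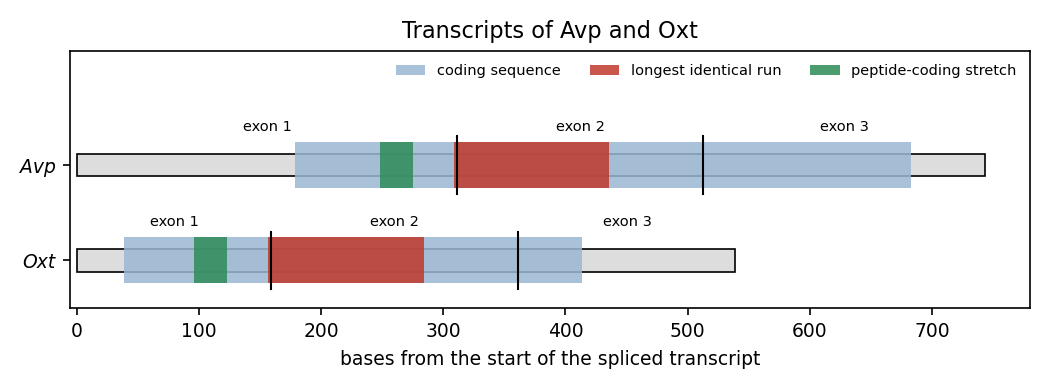
Spliced transcripts of *Avp* (743 bases) and *Oxt* (539 bases), with bases from the start of the transcript on the x axis. Blue marks the coding sequence, green the 27 bases that code for the nonapeptide and red the run of 127 identical bases, and vertical lines mark exon borders; the red run starts just before the border of exons 1 and 2 in both genes.

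*Pmch* (ENSMUSG00000035383) lies at chr10:87926933-87928237 on the plus strand with 3 exons, and *Hcrt* (ENSMUSG00000045471) at chr11:100651895-100653762 on the minus strand with 2 exons. None of the 4 genes lies on chromosome 4, which carries *Tas1r3*. The stretches that code for melanin-concentrating hormone (57 bases, exons 2 and 3) and for the second orexin, orexin B (84 bases, exon 2), are shown as the part of each mRNA that gives the active peptide.
Pmch, spliced within chr10:87927739-87928048, plus strand: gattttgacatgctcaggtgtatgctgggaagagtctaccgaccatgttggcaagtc
Hcrt, chr11:100652725-100652808, minus strand: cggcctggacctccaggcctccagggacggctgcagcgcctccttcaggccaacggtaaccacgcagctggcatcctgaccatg
The exons of *Pmch* overlap those of *Parpbp*, a gene on the opposite strand with a role in DNA recombination. The canonical transcript of *Parpbp* covers 435 bases (58%) of the spliced *Pmch* transcript.

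The 4 libraries were of like depth. WT WD replicate 1 held 5917470 estimated counts and replicate 2 held 6177210, and the *Tas1r3*-/- WD libraries held 6273772 and 5874782. Where 0 counts were found, up to 3 remain possible, or 0.485 to 0.524 CPM in these libraries, from counting error alone. *Tas1r3* itself (chr4:155943725-155947819, minus strand) had 6.01 and 4.45 CPM in WT WD against 1.12 and 1.23 CPM in *Tas1r3*-/- WD, so that the libraries of each genotype stood apart in the direction of the labels. Its log2 fold change was -2.13 (SE 0.42) and did not pass the adjustment over all genes (edgeR quasi-likelihood test, Benjamini-Hochberg adjusted p = 0.757).

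The tissue label was checked against 10 transcription factors of hypothalamic neurons, and WT WD replicate 2 went against it. Their summed level was 301 CPM in WT WD replicate 1, 229 and 213 CPM in *Tas1r3*-/- WD, and 23.2 CPM in WT WD replicate 2. In that library *Nkx2-1* and *Nr5a1*, which define ventral and ventromedial hypothalamic neurons, had 0 counts, and *Otp*, needed for magnocellular neurons, was at 0.494 CPM against 35.8 to 53.9 CPM in the others. Less far below the others there were *Six3*, at 7.41 CPM against 54.9 to 68.5 CPM, and *Foxb1*, at 10.1 CPM against 19.1 to 21.5 CPM. Genes of the thalamus, the structure above the hypothalamus, went the other way, with a sum of 2458 CPM in WT WD replicate 2 and of 366 to 545 CPM in the other 3. *Ttr*, the most abundant mRNA of the choroid plexus, was at 678 CPM there and at 4.29 CPM or below elsewhere. Over all 14344 genes tested, the root mean square log2 difference between libraries was 0.759 for the WT WD pair, 0.373 for the *Tas1r3*-/- WD pair, and 0.411 and 0.417 between WT WD replicate 1 and the *Tas1r3*-/- WD libraries. *Tas1r3*-/- WD replicate 1 stood apart in another respect. Its 7 anterior pituitary genes summed to 1454 CPM, led by growth hormone (*Gh*, 762 CPM), against 1.98 to 14.6 CPM in the other libraries.

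*Avp* mRNA was measured at 335 CPM in WT WD replicate 1, 2.31 CPM in WT WD replicate 2, and 197 and 203 CPM in *Tas1r3*-/- WD. The *Tas1r3*-/- WD libraries were nearly equal and lay between the WT WD libraries, so the groups overlapped. In counts, 14 estimated *Avp* counts in WT WD replicate 2 (95% Poisson interval 7.65 to 23.5) stood against 1952 in replicate 1, a 145-fold difference in CPM. By rank among 16339 genes, *Avp* was number 444 and number 13727 in these libraries, and number 975 and number 948 in *Tas1r3*-/- WD. With all libraries the mean was 169 ± 235 CPM in WT WD and 200 ± 4.18 CPM in *Tas1r3*-/- WD (SD, n = 2).

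*Oxt* mRNA was measured at 109 CPM and 3.46 CPM in WT WD replicates 1 and 2, and at 92.9 and 120 CPM in *Tas1r3*-/- WD. WT WD replicate 1 fell within the *Tas1r3*-/- WD pair, and WT WD replicate 2 was less far below the other libraries than for the other 3 genes. Even so, the 21 estimated counts of WT WD replicate 2 (interval 13 to 32.1) put *Oxt* 31.4-fold below replicate 1. The group means were 56 ± 74.3 CPM in WT WD and 107 ± 19.5 CPM in *Tas1r3*-/- WD (SD, n = 2).

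*Pmch* was the most abundant of the 4 mRNAs in every library, at 768 and 6.59 CPM in WT WD replicates 1 and 2 and at 374 and 559 CPM in *Tas1r3*-/- WD. It ranked number 120 of 16339 genes by counts in WT WD replicate 1 and number 11736 in replicate 2, and number 378 and number 201 in *Tas1r3*-/- WD. WT WD replicate 1 was above, and WT WD replicate 2 below, both *Tas1r3*-/- WD libraries. The WT WD libraries differed by 117-fold, with 40 estimated counts in replicate 2 (interval 28.6 to 54.5), and the *Tas1r3*-/- WD libraries by 1.5-fold. The means were 387 ± 539 CPM and 466 ± 131 CPM (SD, n = 2).

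*Hcrt* mRNA was measured at 165 and 0.824 CPM in WT WD replicates 1 and 2, and at 63 and 93.3 CPM in *Tas1r3*-/- WD. The order of the libraries was that of *Pmch*, with the groups again overlapping. The 5 estimated counts of WT WD replicate 2 (interval 1.62 to 11.7) were close to the limit of 3 counts, and the difference from replicate 1 was 200-fold. The means were 82.7 ± 116 CPM in WT WD and 78.1 ± 21.4 CPM in *Tas1r3*-/- WD (SD, n = 2).

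**Figure D2:**
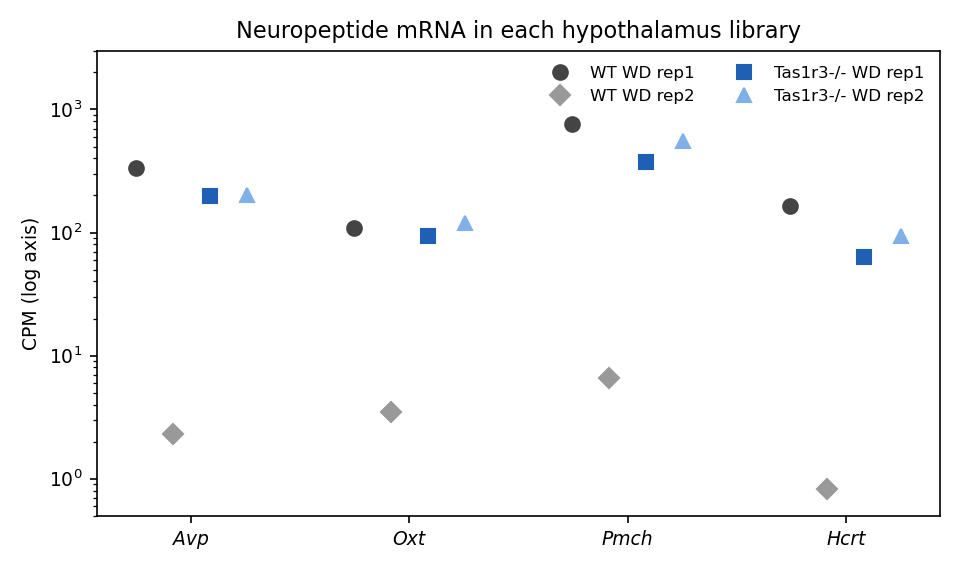
CPM of *Avp*, *Oxt*, *Pmch* and *Hcrt* on a log axis, with 1 point for each library. For all 4 genes WT WD replicate 2 (grey diamonds) lies between 0.824 and 6.59 CPM, whereas the other 3 libraries lie between 63 and 768 CPM.

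Per kilobase of transcript, *Pmch* was first in all 4 libraries, at 1024, 8.79, 498 and 745 CPM per kb in WT WD replicates 1 and 2 and *Tas1r3*-/- WD replicates 1 and 2. *Avp* was the second in WT WD replicate 1 (451 CPM per kb) and in both *Tas1r3*-/- WD libraries (265 and 273 CPM per kb). The lower places changed between libraries. In WT WD replicate 1, *Hcrt* (278 CPM per kb) came before *Oxt* (201 CPM per kb), whereas in *Tas1r3*-/- WD *Oxt* (172 and 223 CPM per kb) came before *Hcrt* (107 and 158 CPM per kb). In WT WD replicate 2, *Oxt* (6.42 CPM per kb) came before *Avp* (3.1 CPM per kb) and *Hcrt* (1.39 CPM per kb), at levels where a few counts set the order. Over the 2 libraries of WT WD, all neighbours in this order overlapped, whereas in *Tas1r3*-/- WD the ranges of the 4 genes did not, and no order was tested. The 4 genes together took 0.138% of the counts of named genes in WT WD replicate 1, 0.00131% in WT WD replicate 2, and 0.0731% and 0.0971% in *Tas1r3*-/- WD.

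Between the WT WD libraries, the 4 genes were among those that differed most in the whole table. On the log2 CPM scale with a prior count of 2, replicate 2 minus replicate 1 was -7.15 for *Hcrt*, -6.99 for *Avp*, -6.79 for *Pmch* and -4.84 for *Oxt*. Ranked from the lowest of 14344 genes, they stood at number 1, 2, 4 and 17, while the median of all genes was -0.01. These ranks depend on abundance, since with this prior count a gene at 0 counts in replicate 2 is limited by its level in replicate 1. *Nkx2-1* and *Nr5a1*, with 0 counts there, were at -6.96 and -6.62. Of all genes tested, 1.45% (208) were at least 4-fold lower in replicate 2 than in replicate 1, and 4 of the 4 peptide genes were among them. Between the *Tas1r3*-/- WD libraries the same 4 differences were 0.56, 0.04, 0.58 and 0.37, none of them 4-fold, a size that 0.293% of all genes reached there.

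Genes listed for the same neurons were mixed in that library, and whether each is confined to them was not tested. Of 9 tested genes of magnocellular neurons, 4 were at least 4-fold lower in WT WD replicate 2 than in replicate 1, with a median log2 difference of -0.88, from -6.03 for *Otp*, lower than that of *Oxt*, to 1.95 for *Rasd1*. Of 10 tested genes of lateral hypothalamic neurons, 5 were at least 4-fold lower and 1 at least 4-fold higher (median -1.58), where 1.3% of all genes were that much higher. The 1 higher gene was *Lhx9*, a transcription factor (4.79), in the direction of the thalamus genes (median 3.66). Of 22 other hypothalamic neuropeptides tested, 17 were at least 4-fold lower (median -2.89) and 1 at least 4-fold higher, namely *Cck*, cholecystokinin (9.96 and 165 CPM in the WT WD libraries, 13 and 17.4 CPM in *Tas1r3*-/- WD). Of the 10 hypothalamic identity genes, 9 were at least 4-fold lower (median -3.92). These lists share genes and are not separate evidence, since *Otp* and *Sim1* are both magnocellular and identity genes, *Pdyn* is in the magnocellular, lateral and other peptide lists, and *Cartpt*, *Nts* and *Qrfp* are in the lateral and other peptide lists. *Trh*, thyrotropin-releasing hormone, for instance, was at 103 and 1.65 CPM in the WT WD libraries and at 89.3 and 92.4 CPM in *Tas1r3*-/- WD. The machinery that processes the precursors is used by most neurons and endocrine cells. Of its 12 genes, 9 were lower in WT WD replicate 2 than in replicate 1 (50.8% of all genes), from -1.33 for *Scg2* to 0.96 for *Pcsk2*, and 0 differed by 4-fold. Their summed level, with *Cpe* the most abundant, was 6445 and 6097 CPM in the WT WD libraries and 6224 and 6278 CPM in *Tas1r3*-/- WD.

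**Figure D3:**
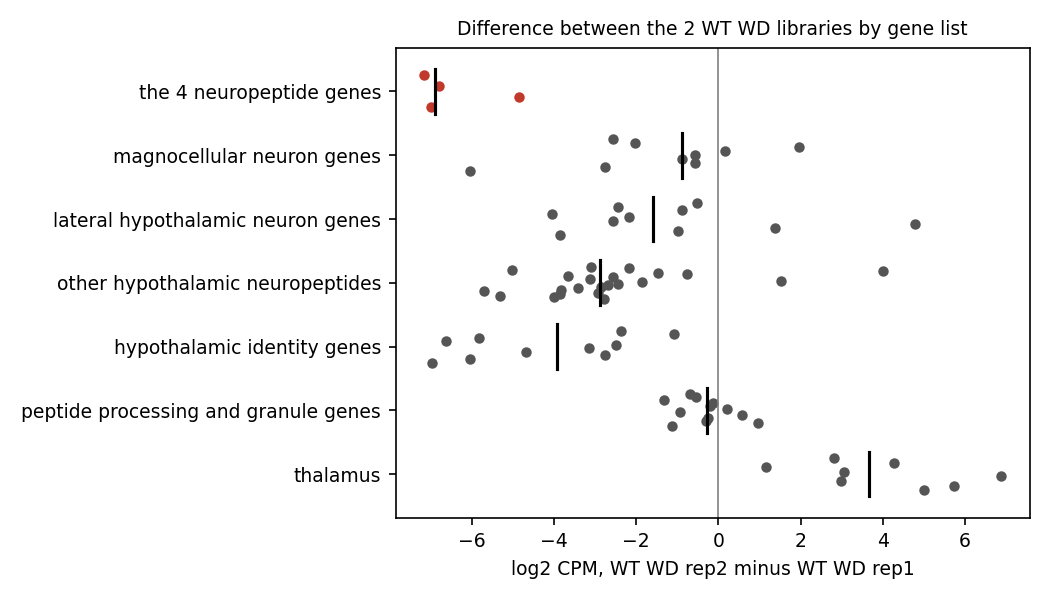
Difference in log2 CPM between WT WD replicate 2 and WT WD replicate 1, with 1 point for each tested gene and a bar at the median of each list. The 4 neuropeptide genes (red) lie between -7.15 and -4.84, the peptide processing genes lie around their median of -0.27, and the thalamus genes lie to the right with a median of 3.66.

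The comparison of WD-fed *Tas1r3*-/- with WD-fed WT mice asks whether loss of the taste receptor subunit goes with a change of these mRNAs under the diet. With all 4 libraries, edgeR's quasi-likelihood test called 0 of 14344 genes (0%). A call needed 1.5-fold or more and an adjusted p below 0.05. The smallest adjusted p of that edgeR fit was 0.757, and 772 genes (5.38%) had an unadjusted p under 0.05. DESeq2 called 8 of 16339 genes (0.049%). None of the 4 peptide genes was called by either tool or had an unadjusted p under 0.05.

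The fitted log2 fold change of *Avp*, *Tas1r3*-/- WD against WT WD, was 0.24 (SE 1.64, 95% interval -4.01 to 4.50, edgeR adjusted p = 0.977). For *Oxt* it was 0.93 (SE 1.27, interval -2.35 to 4.21, edgeR adjusted p = 0.852). Values for the lateral hypothalamic genes were 0.27 for *Pmch* (SE 1.67, interval -4.05 to 4.58, edgeR adjusted p = 0.975) and -0.08 for *Hcrt* (SE 1.60, interval -4.21 to 4.05, edgeR adjusted p = 0.992). Averaging logs in limma-trend moved the 4 values to between 2.38 and 2.75 and a replicate block to between 1.53 and 2.40, which turned the sign of *Hcrt*, with no gene called. Each edgeR interval spans more than 4-fold in both directions, so a difference of the size seen between WT WD replicate 1 and the *Tas1r3*-/- WD libraries was not detectable with these libraries. Across all genes tested the median log2 fold change was -0.01, with 7031 positive and 7313 negative.

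Without WT WD replicate 2, the *Tas1r3*-/- WD libraries were at 58.7% and 60.5% of WT WD replicate 1 for *Avp*, at 48.6% and 72.7% for *Pmch*, and at 38.3% and 56.7% for *Hcrt*. For *Oxt* they were at 85.5% and 111%, on both sides of it. Both *Tas1r3*-/- WD libraries were thus lower for 3 of the 4 genes, where 37.4% of all genes were lower and 37.6% higher in both. Tissue markers moved with this, since 8 of 10 hypothalamic identity genes were lower in both than in WT WD replicate 1. Of thalamus genes 6 of 8, and of red blood cell genes 5 of 5, were higher in both. Choroid plexus genes were lower in both (3 of 3 tested), and 3 of 7 striatum genes were higher and 0 lower. Cortex and hippocampus genes went both ways, with 2 of 5 higher and 2 of 5 lower. The part of these tissues in the difference was not tested. A fit to these 3 libraries called 32 of 14714 genes (0.217%), of which 5 were lower (0.034%). *Avp* was 1 of these 5, at a log2 fold change of -0.75 (SE 0.10, interval -0.98 to -0.51, edgeR adjusted p = 0.034), and the others were *Pdyn*, *Dbp*, *Fezf1* and *Eno1b*, named after their values were seen. The call of *Avp* was lost when its counts were summed with those of *Oxt* (-0.53). Since *Oxt* itself was near 0 in this fit (-0.03), that loss does not show whether the call rests on reads that fit both genes. On simulated data of 2 libraries against 2, calls were false more often than the threshold allows, but this fit is another comparison. *Pdyn* encodes prodynorphin, which vasopressin neurons also make, and had a log2 fold change of -0.67 (edgeR adjusted p = 0.036). The magnocellular list that holds *Pdyn* did not share its direction, with 4 of 9 genes higher and 4 lower in both *Tas1r3*-/- WD libraries. *Hcrt* was at -1.08 (SE 0.18, interval -1.47 to -0.68), just outside the threshold with an edgeR adjusted p of 0.0527, and *Pmch* at -0.72 (SE 0.18, interval -1.12 to -0.33, edgeR adjusted p = 0.165). *Oxt* was at -0.03 (SE 0.15, interval -0.35 to 0.30, edgeR adjusted p = 0.952). In this fit WT WD is 1 library, assumed to vary as the *Tas1r3*-/- WD pair does, so the values compare that library with the pair.

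Without WT WD replicate 1, the comparison turned over. The *Tas1r3*-/- WD libraries were 85.4- and 88-fold above WT WD replicate 2 for *Avp*, 26.8- and 34.8-fold for *Oxt*, 56.7- and 84.8-fold for *Pmch* and 76.4- and 113-fold for *Hcrt*. The fitted log2 fold changes were 6.43, 4.94, 6.14 and 6.53, and all 4 were called higher (edgeR adjusted p = 2.23e-07, 2.17e-06, 1.54e-06 and 9.25e-06). In the same fit 2120 of 14841 genes were called (14.3%), 7.53% of all genes as higher. Here too WT WD is 1 library, the spread comes from the *Tas1r3*-/- WD pair, and the values compare WT WD replicate 2 with that pair.

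**Figure D4:**
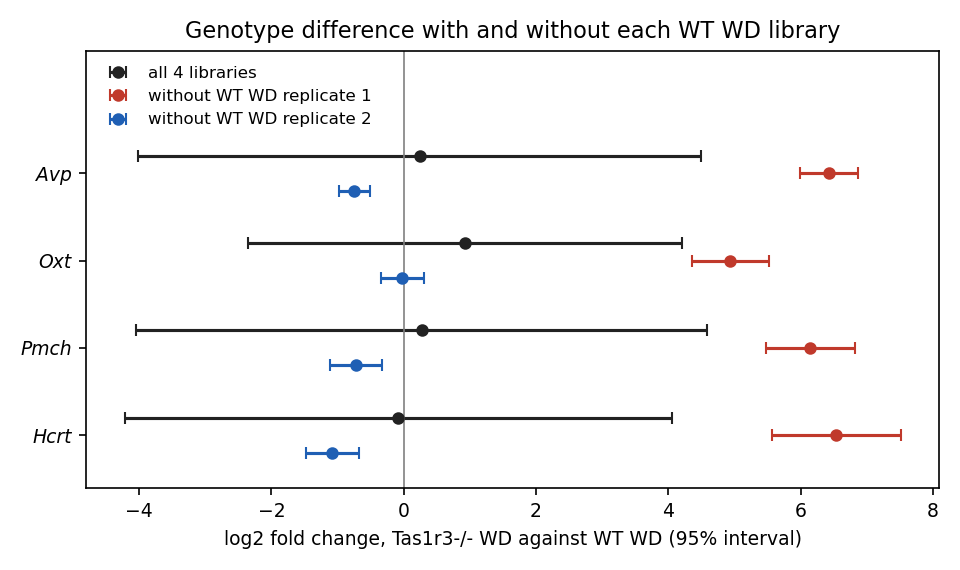
Log2 fold change of *Tas1r3*-/- WD against WT WD in edgeR for each gene, with its 95% interval, fitted with all 4 libraries (black), without WT WD replicate 1 (red) and without WT WD replicate 2 (blue). The black intervals cover 0 for all 4 genes, the red estimates lie between 4.94 and 6.53, and the blue estimates lie between -1.08 and -0.03.

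Ratios between genes of a pair compare the hormones within a library, where depth cancels. The *Avp*:*Oxt* ratio of estimated counts was 3.09 in WT WD replicate 1 (95% exact binomial interval 2.82 to 3.38) and 0.663 in WT WD replicate 2 (0.314 to 1.37). In *Tas1r3*-/- WD it was 2.12 (1.92 to 2.35) and 1.68 (1.53 to 1.85). WT WD replicate 1 had the highest ratio and WT WD replicate 2 the lowest, where *Avp* made up 40% of 35 counts, against 75.5%, 68% and 62.7% in the others. Intervals cover counting error only, and that of WT WD replicate 2 includes 1. On the log2 scale the ratio was 0.52 ± 1.57 in WT WD and 0.92 ± 0.24 in *Tas1r3*-/- WD (SD, n = 2), a difference of 0.40 (two-sided exact permutation test, p = 1, with 0.333 the smallest p that 2 libraries against 2 allow). Without WT WD replicate 2 the difference was -0.71, the pair of *Tas1r3*-/- WD ratios both lying below the interval of WT WD replicate 1.

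The *Pmch*:*Hcrt* ratio varied less. It was 4.67 (4.35 to 5.01) in WT WD replicate 1, 8.09 (3.16 to 26) in WT WD replicate 2, and 5.93 (5.33 to 6.62) and 5.99 (5.46 to 6.58) in *Tas1r3*-/- WD. The *Tas1r3*-/- WD libraries were nearly equal, and the ratio of WT WD replicate 2, with 45 counts in all, had an interval that covered those of the other 3 libraries. On the log2 scale it was 2.62 ± 0.56 in WT WD and 2.58 ± 0.01 in *Tas1r3*-/- WD (SD, n = 2), a difference of -0.04 (two-sided exact permutation test, p = 1, smallest possible p 0.333). Without WT WD replicate 2 the difference was 0.35, again with both *Tas1r3*-/- WD ratios on 1 side of WT WD replicate 1. Per kilobase, the *Avp*:*Oxt* ratio was 2.24, 0.481, 1.54 and 1.22, and the *Pmch*:*Hcrt* ratio 3.68, 6.37, 4.67 and 4.72, in the same order of libraries.

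**Figure D5:**
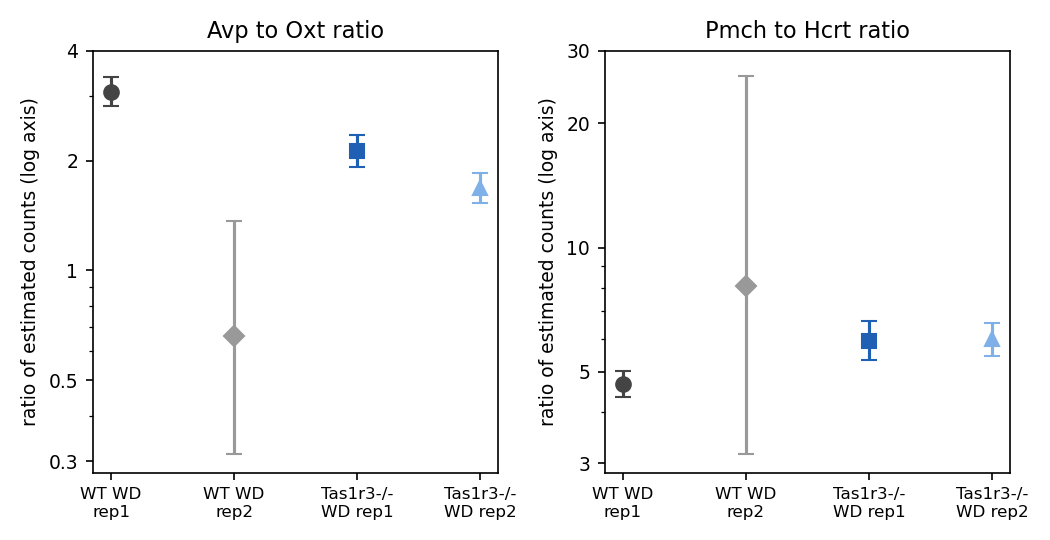
Ratio of estimated counts of *Avp* to *Oxt* (left) and of *Pmch* to *Hcrt* (right) in each library on log axes, with 95% exact binomial intervals that cover counting error only. WT WD replicate 2 is lowest on the left (0.663) and highest on the right (8.09), with the widest interval in both.

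The receptors of these peptides were expressed at low levels. *Oxtr*, the oxytocin receptor, was at 9.96 and 5.77 CPM in WT WD against 9.48 and 12.6 CPM in *Tas1r3*-/- WD, and *Avpr1a*, the vasopressin receptor of brain and vessels, at 5.5 and 1.15 CPM and 6.43 and 5.44 CPM. Both overlapped between the groups, with log2 fold changes of 0.49 (SE 0.36, edgeR adjusted p = 0.768) and 0.84 (SE 0.71, edgeR adjusted p = 0.777). *Avpr1b* and *Avpr2* were not analysed here. *Mchr1*, the receptor of melanin-concentrating hormone, was at 11 and 13 CPM in WT WD against 14.1 and 16.8 CPM in *Tas1r3*-/- WD. It was higher in both *Tas1r3*-/- WD libraries than in both WT WD libraries, as were 20.6% of all genes tested, and was not called (0.37, SE 0.22, edgeR adjusted p = 0.757). The orexin receptor *Hcrtr2* was at 10.5 and 2.97 CPM and 11.1 and 10.7 CPM (0.70, SE 0.59, edgeR adjusted p = 0.777), and *Hcrtr1* at 8.93 and 2.47 CPM and 7.87 and 6.66 CPM (0.35, SE 0.62, edgeR adjusted p = 0.888). *Hcrtr2* also had no overlap between the groups, but only by library scaling, since WT WD replicate 1 and *Tas1r3*-/- WD replicate 2 both held 61 counts of it. Of the 5 receptors tested, 4 were lowest in WT WD replicate 2, the exception being *Mchr1*, and none differed there by 4-fold on the log2 CPM scale used above.

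Genes that process the precursors showed no call among 12 tested, with 8 fitted as higher and 4 as lower in *Tas1r3*-/- WD (median log2 fold change 0.10). Both *Tas1r3*-/- WD libraries were higher for 3 and lower for 1 of the 12 (20.6% and 19% of all genes) and, without WT WD replicate 2, higher for 3 and lower for 4 (37.6% and 37.4%). The most abundant were *Cpe*, carboxypeptidase E, at 1780 and 2640 CPM in WT WD against 1701 and 1801 CPM in *Tas1r3*-/- WD, *Scg2*, a granule protein, at 1303 and 517 CPM and 1235 and 1265 CPM, and *Pcsk1n*, an inhibitor of prohormone convertase, at 674 and 550 CPM and 558 and 543 CPM. *Cpe* was thus highest and *Scg2* lowest in WT WD replicate 2.

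Among genes of magnocellular neurons, 0 of 9 tested were called, 3 were higher in both *Tas1r3*-/- WD libraries than in both WT WD libraries and 0 were lower (20.6% and 19% of all genes), and the median log2 fold change was 0.33. *Arnt2*, a partner of *Sim1* in the development of these neurons, was at 375 and 204 CPM in WT WD against 370 and 359 CPM in *Tas1r3*-/- WD. *Nos1*, neuronal nitric oxide synthase, was at 166 and 40.2 CPM and 178 and 200 CPM, and *Pdyn* at 112 and 18.8 CPM and 71.2 and 70.1 CPM. The 3 therefore differed in where the *Tas1r3*-/- WD libraries stood against WT WD replicate 1, with *Nos1* above it, *Arnt2* just below it and *Pdyn* further below it, as *Avp* was. Without WT WD replicate 2, both *Tas1r3*-/- WD libraries were higher for 4 and lower for 4 of the 9, which is near those shares of all genes (37.6% and 37.4%).

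Among genes of lateral hypothalamic neurons, 0 of 10 were called, 3 were higher and 1 lower in both *Tas1r3*-/- WD libraries (20.6% and 19% of all genes), and the median was 0.44. *Dlk1*, which orexin neurons express, was at 602 and 35.9 CPM in WT WD against 463 and 456 CPM in *Tas1r3*-/- WD. *Cartpt*, a peptide precursor found in neurons with melanin-concentrating hormone, was at 184 and 12.4 CPM and 130 and 120 CPM. The 1 lower gene was *Nptx2*, a synaptic pentraxin, at 65.1 and 169 CPM and 47.1 and 54.2 CPM (-1.21, SE 0.46, edgeR adjusted p = 0.757). *Dlk1* and *Cartpt*, as *Pmch* and *Hcrt*, were highest in WT WD replicate 1 and lowest in WT WD replicate 2, whereas *Nptx2* was highest in WT WD replicate 2. Against WT WD replicate 1 alone, 4 of the 10 were higher and 5 lower in both *Tas1r3*-/- WD libraries, where 37.6% of all genes were higher and 37.4% lower.

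Of 22 other hypothalamic neuropeptides tested, 0 were called and 17 were fitted as higher (median 0.41), with 1 higher and 0 lower in both *Tas1r3*-/- WD libraries (20.6% and 19% of all genes). Without WT WD replicate 2 both *Tas1r3*-/- WD libraries were higher for 2 and lower for 12 of the 22, where the shares of all genes were 37.6% and 37.4%. *Sst*, somatostatin, was at 188 and 25.5 CPM in WT WD against 128 and 129 CPM in *Tas1r3*-/- WD. *Pomc*, the precursor of melanocortins, was at 112 and 2.47 CPM and 343 and 45.2 CPM. Its high value in *Tas1r3*-/- WD replicate 1 is in the library that also held the pituitary genes. *Pomc* is also made in the pituitary, and the part of that tissue in this value was not tested. The hypothalamic identity genes had a median of 0.43, with 8 of 10 lower in both *Tas1r3*-/- WD libraries than in WT WD replicate 1 and 1 higher. *Six3*, the most abundant, was at 68.5 and 7.41 CPM in WT WD against 58.2 and 54.9 CPM in *Tas1r3*-/- WD.

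Markers of other tissues moved with WT WD replicate 2. Of 8 thalamus genes, 7 were at least 4-fold higher there than in WT WD replicate 1, 0 were at 0 in any library, and the most abundant were *Calb2* (263 and 583 CPM in WT WD, 211 and 280 CPM in *Tas1r3*-/- WD), *Prkcd* (10.6 and 585 CPM, 15.7 and 41.6 CPM) and *Ntng1* (45.9 and 384 CPM, 47.7 and 67.7 CPM). Cortex and hippocampus genes summed to 172 and 406 CPM in WT WD against 121 and 136 CPM in *Tas1r3*-/- WD, with *Slc17a7*, a glutamate transporter also found in thalamus, at 265 CPM in WT WD replicate 2 against 2.41 to 11.9 CPM. *Nrgn*, the most abundant of them, was not highest there (133, 69.5, 79 and 94.7 CPM in WT WD replicates 1 and 2 and *Tas1r3*-/- WD replicates 1 and 2), and *Mef2c* was (21.3, 66.1, 28.3 and 21.6 CPM). Choroid plexus genes summed to 58.1, 743, 50.4 and 37.5 CPM in WT WD replicates 1 and 2 and *Tas1r3*-/- WD replicates 1 and 2, with *Ttr* the largest part of it in replicate 2. *Folr1* (0.344, 9.06, 1.61 and 0.175 CPM) and *Kcnj13* (0.344, 10.4, 0.643 and 0.175 CPM) were also highest there, whereas *Clic6* (40.9, 33.3, 35.5 and 30.9 CPM) and *Kl* (12.2, 12, 9.64 and 5.61 CPM) were not. Red blood cell genes, all 5 of them at least 4-fold higher in WT WD replicate 2 than in replicate 1, summed to 380, 1959, 769 and 454 CPM, led by *Hba-a1* (167, 859, 343 and 195 CPM), *Hba-a2* (126, 658, 265 and 145 CPM) and *Hbb-bs* (62.7, 315, 117 and 82.6 CPM). Striatum genes summed to 298, 140, 425 and 272 CPM, led by *Penk* (127, 14.3, 144 and 121 CPM), which is also a hypothalamic peptide gene, *Rgs9* (84, 28.7, 125 and 72.1 CPM) and *Ppp1r1b* (33.5, 60, 65.9 and 36.5 CPM). The part of these tissues in the low neuropeptide values of WT WD replicate 2 was not tested. Anterior pituitary genes were high in *Tas1r3*-/- WD replicate 1, with 0 of 7 at 0 counts there against 3 and 4 of 7 in WT WD replicates 1 and 2 and 1 in *Tas1r3*-/- WD replicate 2, and *Gh*, *Prl* and *Cga* were at 762, 499 and 135 CPM. The 4 peptide genes were not higher in that library than in *Tas1r3*-/- WD replicate 2, being between 1.03- and 1.5-fold lower.

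Apart from *Avp* and *Oxt*, which are next to each other, most genes beside the 4 members did not follow them. *Ubox5*, next to *Avp*, was at 11.7 and 13.5 CPM in WT WD against 7.23 and 10.5 CPM in *Tas1r3*-/- WD, and *Mrps26*, next to *Oxt*, at 45.5 and 44.5 CPM and 39.5 and 39.1 CPM. Both were at like levels in the WT WD libraries. *Nup37*, beside *Pmch*, was at 2.23 and 2.47 CPM and 1.93 and 1.93 CPM, *Igf1*, on its other side, at 2.4 and 15 CPM and 3.37 and 5.08 CPM, and *Ghdc*, beside *Hcrt*, at 11.5 and 10.7 CPM and 14.5 and 9.99 CPM. *Kcnh4*, a potassium channel on the other side of *Hcrt*, was at 5.84 and 1.81 CPM and 8.68 and 8.24 CPM, also lowest in WT WD replicate 2. *Parpbp*, which shares bases with *Pmch*, followed it, at 40.5 and 1.32 CPM and 19 and 29.3 CPM, the library order of *Pmch* at a much lower level. Its log2 fold change was 0.21 (SE 1.22, edgeR adjusted p = 0.973), and without WT WD replicate 2 it was -0.76, against -0.72 for *Pmch*. The kit and the counting are not stated to use strand in the sources used here, so reads of *Parpbp* and of *Pmch* over the shared bases may not be separable.

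Estimated counts of the pairs with shared bases were not whole numbers, and in WT WD replicate 2 they added up to whole ones. There, *Avp* had 13.9563 and *Oxt* 21.0437 estimated counts, which add up to 35, and *Pmch* had 40.4436 and *Parpbp* 7.55638, which add up to 48 within 2e-05. The *Avp*:*Oxt* ratio of that library rests on 35 counts, of which those that fit both genes were divided between them. How many these were was not tested. With *Avp* and *Oxt* summed, the log2 fold change was 0.45 (edgeR adjusted p = 0.948) and, without WT WD replicate 2, -0.53 (SE 0.10, edgeR adjusted p = 0.0927). *Pmch* summed with *Parpbp* was at 0.26 (edgeR adjusted p = 0.975) and, without that library, at -0.72 (edgeR adjusted p = 0.163).

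Profiles over the 4 libraries were compared by the root mean square distance of log2 CPM, each gene centred on its own mean, among 10874 genes with a mean of at least 10 CPM. *Pmch* and *Hcrt* were closest to each other (0.15), *Avp* was at 0.21 from *Pmch* and 0.24 from *Hcrt*, and *Oxt* stood apart at 0.71 to 0.82 from the other 3. Outside the 4, the nearest to *Avp* were *Nkx2-1* (0.13), *Nr5a1* (0.32) and *Otp* (0.37). The nearest to *Pmch* were *Nkx2-1* (0.25), *Otp* (0.38) and *Nr5a1* (0.41), and to *Hcrt* the same genes at 0.32, 0.47 and 0.42. *Oxt* had other neighbours, namely *Calcr*, the calcitonin receptor (0.15), *Irs4*, an insulin receptor substrate (0.20), and *Gpr50*, an orphan receptor (0.22). *Irs4*, for example, was at 175 and 4.61 CPM in WT WD against 176 and 173 CPM in *Tas1r3*-/- WD. All these distances describe 4 points, of which WT WD replicate 2 sets most of the spread, and those of genes with 0 counts there depend on the prior count of 2.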

How the data were processed

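RNA sequencing of hypothalamus from WD-fed mice (2 WT and 2 *Tas1r3*-/- libraries, Ion Torrent, depleted of ribosomal RNA) was analysed. Per the methods and labels, the authors used STAR within Partek Flow to align reads to mm39, estimated counts for RefSeq transcripts, and deposited these estimated counts without normalization, in a table where each of the 30930 transcripts has a total of at least 10. Of the values, 13.1% are whole to within 1e-09. The design had assumed counts for genes, so expected counts of the 30891 transcripts named through RefSeq were added up for each of 16339 genes, then rounded. A further 39 transcripts held between 0.347% and 2.49% of a library and were left out. No column of values was left unused, and the 4 tables of single samples equal the columns of the joint table.

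Genes were tested with edgeR 4.0.16 in R 4.3.3 (TMM, filterByExpr, quasi-likelihood test, Benjamini-Hochberg adjustment over all 14344 genes). Calls needed 1.5-fold or more at an adjusted p below 0.05. DESeq2 1.42.0, which the authors used, limma 3.58.1 (limma-trend), other normalizations and filters, unsummed transcripts, a block for replicate number and leaving out each library were alternatives. The tests were tested on simulated data of 2 libraries against 2. There, at the spread of these libraries, the share of false calls was above the threshold of the adjusted p. An adjusted p near it may therefore be too small. Fits that leave out a library are another comparison, which that share does not describe. CPM were computed from rounded counts and TMM-scaled library sizes, with factors between 0.988 and 1.01. Log2 CPM between libraries used a prior count of 2. Ratios were compared by exact permutation with scipy 1.17.1. Replicate numbers pair no animals in the labels.

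The 4 genes and the lists were chosen with earlier results of these data known. Named were the 4 genes, *Tas1r3*, tested receptors, the 3 most abundant genes of every other list and any called, genes beside a member, and the 3 nearest profiles of each. *Trh*, *Cck*, *Rasd1*, *Lhx9*, *Pcsk2*, *Foxb1*, *Folr1* and *Kcnj13* were named after their values were seen. GENCODE M39 (GRCm39, that is, mm39) gave sequences and coordinates.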

Additional observations from a re-analysis of the deposited data

How the results depend on the processing

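WT WD replicate 2 decides the result. Leaving out each library in turn moved the log2 fold change between -0.75 and 6.43 for *Avp*, -0.03 and 4.94 for *Oxt*, -0.72 and 6.14 for *Pmch* and -1.08 and 6.53 for *Hcrt*, the lower end without WT WD replicate 2 and the upper without WT WD replicate 1, where all 4 passed the threshold. *Pmch* was also at -0.06 without *Tas1r3*-/- WD replicate 2 and *Hcrt* at 0.18 without *Tas1r3*-/- WD replicate 1. The log2 difference in ratio ranged from -0.71 to 1.51 for *Avp*:*Oxt* and from -0.44 to 0.35 for *Pmch*:*Hcrt*, at -0.71 and 0.35 without WT WD replicate 2. With all libraries, adding 0.5 counts moved the *Pmch*:*Hcrt* difference from -0.04 to 0.01. The number of genes called was 0 with all libraries and between 0 and 2120 when one was left out (32 without WT WD replicate 2), and 8 with DESeq2. In limma-trend, where logs are averaged over libraries, the 4 values were 2.75 (*Avp*), 2.38 (*Oxt*), 2.65 (*Pmch*) and 2.48 (*Hcrt*, a change of sign). Chosen after seeing the data, *Avp* summed with *Oxt* and *Pmch* summed with *Parpbp* were at -0.53 and -0.72 without WT WD replicate 2.

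Replicate numbers pair no animals in the labels, and deviations of same-numbered libraries correlated at 0.0821. This correlation cannot show whether same-numbered libraries are related. The WT WD difference in it (root mean square 0.759, against 0.373 in *Tas1r3*-/- WD) is largely that of WT WD replicate 2 from the other libraries. With a replicate block the log2 fold changes were 2.23 (*Avp*), 2.02 (*Oxt*), 2.40 (*Pmch*) and 1.53 (*Hcrt*, a change of sign), and 0 genes were called, so the block changed no call. RLE size factors, total counts, no filter and unsummed transcripts kept the sign of all 4 fold changes and called none of them, as did the filter of at least 10 counts in every library, which removed *Hcrt*. The spread between the WT WD libraries sets what could be detected with all 4 libraries, where the 95% intervals of edgeR with TMM, filterByExpr and no block reached from at most -2.35 to at least 4.05 on the log2 scale.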
